A study of Mus musculus with 4 samples.

Results

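The genes described here are 10 targets of the transcriptional regulators YAP and SRF, measured in mouse embryonic fibroblasts (MEFs) that lack H3f3b and in wildtype MEFs. They are 5 genes widely used as readouts of YAP (Ankrd1, Ctgf, Cyr61, Amotl2 and Axl) and 5 genes of the actin cytoskeleton and its adhesion sites (Vcl, Zyx, Flna, Actn1 and Tpm1). The genes were chosen by name, and every probe that the array annotation pairs with one of them under its older or current symbol was used. Of the 10 genes, 9 had at least 1 such probe and 12 probes in all, among 25697 probes on the array and 8047 genes tested. No probe was paired with Flna, which encodes the actin crosslinker filamin A, and it was not analysed here. The choice was made with results of these same 4 arrays known, so the differences between genotypes are given below as a description, and no test result for these genes is read as support.

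The knockout (KO) group held 2 MEF lines with the genotype H3f3b -/-, and the wildtype (WT) group held 2 MEF lines with the genotype H3f3b WT/WT, all at embryonic day 12.5 on a C57BL6J background. The null allele came from germline deletion of the coding exons by Zp3Cre, and the embryos came from crosses between heterozygous parents. Each line was grown from the tissue of an embryo without its head and internal organs, all 4 lines carried the stable vector pBabe puro, and the lines were littermates. Total RNA of each line was hybridized to 1 Illumina MouseRef-8 BeadChip array, which reports a signal (the mean brightness of the beads of a probe, in arbitrary intensity units) and a detection p-value against negative control probes. Because each genotype has only 2 lines, the spread between replicates is a spread between cultures of 2 embryos. With so few arrays, all values below are of limited precision.

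YAP and its relative TAZ are coactivators that shuttle between the cytoplasm and the nucleus. The Hippo kinases hold them in the cytoplasm, whereas spreading, stiff matrix and actin tension let them enter the nucleus, where they act through the TEAD family of DNA-binding proteins. SRF binds a DNA element named the CArG box and, with the cofactors MRTF-A and MRTF-B, reads the pool of free actin monomers. MRTFs are released to SRF when actin polymerises, so both pathways respond to the state of the cytoskeleton. In cultured fibroblasts on plastic both are known to be active, and Ctgf, Cyr61 and the SRF-driven actin genes are typically abundant.

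The promoters of the genes were searched for the elements that these factors bind. Of the 10 genes, 9 matched a RefSeq promoter of build GRCm38.p6, which runs from 250 bases before the annotated start site to 50 bases after it, and Ctgf did not match. For 2 of these 9 genes (Ankrd1 and Cyr61) the annotated start is the outermost end of the gene, and for the other 7 it lies 15 to 3320 bases inside it. The search used the TEAD hexamer GGAATG on both strands (its reverse complement is CATTCC) and the CArG box on both strands. These promoters are shown because Ankrd1 is the gene whose arrays stood farthest apart, Cyr61 is the classic YAP target that did not follow it, and Vcl holds both elements. Each run gives the 250 bases before the start site, 5′ to 3′ on the strand of the gene, and capitals mark a TEAD hexamer or, in Vcl, also the CArG box. The positions are chr19:36119845-36120094 (minus strand) for Ankrd1, chr3:145649986-145650235 (minus strand) for Cyr61 and chr14:20929148-20929397 (plus strand) for Vcl.
Ankrd1: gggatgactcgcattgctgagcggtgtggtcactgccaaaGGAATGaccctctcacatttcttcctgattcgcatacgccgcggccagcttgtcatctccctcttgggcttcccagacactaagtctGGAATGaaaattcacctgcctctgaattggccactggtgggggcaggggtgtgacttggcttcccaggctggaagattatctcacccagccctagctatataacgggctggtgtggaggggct
Cyr61: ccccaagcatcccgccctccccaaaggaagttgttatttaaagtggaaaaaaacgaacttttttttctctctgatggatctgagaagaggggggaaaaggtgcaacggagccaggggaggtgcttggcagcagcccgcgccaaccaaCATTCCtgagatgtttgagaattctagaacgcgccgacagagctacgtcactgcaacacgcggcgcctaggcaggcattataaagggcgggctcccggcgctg
Vcl: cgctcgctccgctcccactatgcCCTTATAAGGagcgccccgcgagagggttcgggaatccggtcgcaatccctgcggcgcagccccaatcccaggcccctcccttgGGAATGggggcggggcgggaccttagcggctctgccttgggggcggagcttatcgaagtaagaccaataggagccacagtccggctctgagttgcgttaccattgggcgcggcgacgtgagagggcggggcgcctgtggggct

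Ankrd1 held 2 copies of the hexamer, with the first base of each 210 and 123 bases before the start site, and both copies lay on the strand of the gene. Cyr61 held 1 copy on the opposite strand, 103 bases before the start. In Vcl the CArG box lay 227 and the hexamer 143 bases before the start, and they do not overlap. The other 4 promoters with the hexamer are shown as 30 bases around it, with the hexamer in capitals, on the strand of the gene. They lie at chr9:102717727-102717756 (plus strand) for Amotl2, chr7:25788949-25788978 (minus strand) for Axl, chrX:74246663-74246692 (minus strand) for Flna and chr9:67049252-67049281 (minus strand) for Tpm1.
Amotl2: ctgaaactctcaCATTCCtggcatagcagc
Axl: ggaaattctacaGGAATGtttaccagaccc
Flna: ggcgttgtggggCATTCCaacgggaggggc
Tpm1: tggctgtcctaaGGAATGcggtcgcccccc

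In these 4 genes the hexamer began 65 (Amotl2), 233 (Axl), 146 (Flna) and 56 (Tpm1) bases before the start site. In total 7 of 9 matched promoters (77.8%) held at least 1 hexamer. It was found in 14.7% of the 32851 mouse promoters of the same length that were searched, which leave out 1 chromosome. Counted by gene, over any promoter of the gene, the share was 16.6% of all genes with a promoter. It was 14.6% of the 6570 tested genes that have a promoter here. Among related genes the hexamer was found in 4 of 13 other YAP and TAZ targets (30.8%) and in 11 of 21 Hippo pathway genes (52.4%). Ankrd1 was the only gene of the 9 with 2 copies, while 1.36% of the searched promoters had 2 or more. By gene, 2 or more copies were found in 3 of 21 Hippo pathway genes (14.3%) and in 1 of 13 other YAP and TAZ targets (7.69%). They were also found in 1 of 22 focal adhesion and stress fibre partners (4.55%), and in 0 genes of the other lists. Zyx and Actn1 held neither element in this window. The CArG box was found in Vcl alone, against 1.63% of the searched promoters and 1.81% of all genes with a promoter. It was found in 6 of 14 (42.9%) of the other genes known as SRF targets, a list of actin cytoskeleton genes that also holds Srf. These matches describe the letters of the window, and a gene may also be controlled from sites outside it.

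The arrays were checked before the genes were compared. H3f3b itself had signals of 97.3 and 98.7 in KO MEFs, not called detected, against 1736 and 1686 in WT MEFs, and on the normalized scale, after background correction, it was at least 69.5-fold lower in KO, with the dim arrays set to the lowest detected value. It was the only gene past the test across all genes (limma, adjusted p = 3.05e-05, n = 2 KO and 2 WT arrays), so 0.0124% of the genes tested were called. The KO arrays were brighter, with mean signals of 381 and 382 against 291 and 294 in WT MEFs, and the arrays were therefore brought to 1 distribution (background correction, quantile normalization and log2, called normalized log2 below). WT replicate 2 stood apart, with 12 mitosis genes at 0.55 log2 units above the mean of the 4 arrays (from -0.24 to -0.15 on the other arrays) and 11 interferon-stimulated genes at 1.49 (from -1.07 to 0.04 on the others). KO replicate 1 alone lacked the Y-linked transcript Eif2s3y, which had a signal of 244 in the other KO line, and of 165 and 135 in the WT lines. The brighter Xist probe stood at 181 on KO replicate 1, against 107 on KO replicate 2 and 95.8 and 86.8 in WT. Of the other Y-linked genes, Uty (signals of 105 to 116) was called detected on all 4 arrays and Kdm5d on the WT arrays only. The paper labels a karyotype of its KO1 line as XX. The lines may thus differ in sex, and the part of sex was not tested. Fibroblast markers were present throughout, with 10 of 11 detected on all arrays and Postn on none, and of the 10 tested 1 was at a higher and 9 at lower values in KO (sums of 30960 and 30438 in KO MEFs, against 33227 and 29156 in WT MEFs).

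All 12 probes were detected on all 4 arrays with a detection p of 0, so no gene depended on the filter for dim probes. As deposited, signals of the brightest probe of each gene spanned from 153 (Amotl2, WT replicate 2) to 25976 (Ctgf, KO replicate 1). Signals of different probes are not a scale for comparing genes, since each probe binds with its own efficiency. Every probe but the brightest of Cyr61 was brighter on both KO arrays than on both WT arrays as deposited, and the arrays as a whole differed in the same way, so the normalized values below are the ones to read for a difference between genotypes.

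**Figure D1:**
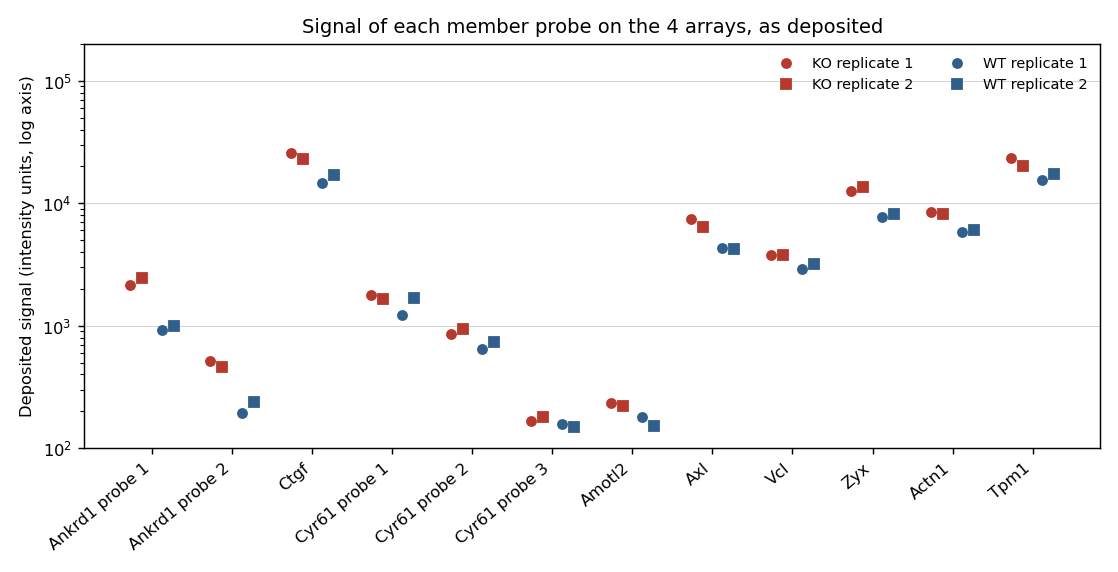
Deposited signal (intensity units, log axis) of the 12 probes on each of the 4 arrays, with KO in red left of WT in blue, circles for replicate 1 and squares for replicate 2, and no error bars because each point is 1 array. Both Ankrd1 probes show the widest gap (2166 and 2439 in KO against 916 and 1000 in WT for the first probe), while the KO and WT points of Cyr61 probe 1 overlap.

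Ankrd1 differed most between the genotypes. It encodes an ankyrin repeat protein that shuttles between muscle sarcomeres or the cytoplasm and the nucleus, and it is induced by stretch and by YAP. Its brightest probe had signals of 2166 and 2439 in KO MEFs, against 916 and 1000 in WT MEFs. In normalized log2 units it stood at 10.84 and 10.99 in KO MEFs and at 9.98 and 10.14 in WT MEFs. Both KO arrays lay above both WT arrays with a gap of 0.69 log2 units between the nearest 2, against 0.16 between the KO replicates and 0.16 between the WT replicates. The difference was 0.86 ± 0.18 log2 units (SE of the model, n = 2 KO and 2 WT arrays), or 1.81-fold.

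The second Ankrd1 probe gave the same order. Its signals were 515 and 462 in KO MEFs, against 195 and 237 in WT MEFs, and its normalized log2 values were 8.54 and 8.35 in KO MEFs and 7.20 and 7.59 in WT MEFs. The KO arrays again lay above, with a gap of 0.76, and the difference was 1.05 ± 0.20 log2 units (2.07-fold). The 2 probes measure the same 4 RNA samples and are not independent of each other. Over all 4 pairs of a KO and a WT array, the signal as scaled by the authors was 1.67 to 2.03 times as high in KO for the brightest probe. The difference was 0.77 to 0.94 log2 units with any 1 array left out, and 0.94 without WT replicate 2.

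Ankrd1 is also a marker of muscle cells, so muscle markers are given beside it. Of 9 skeletal muscle markers with a probe, 6 (Myog, Myod1, Ckm, Tnnt3, Actn2 and Mylpf) were detected on no array, and 2 (Des and Acta1) were tested, both at higher values in KO. The summed level of the tested markers was 2023 and 2616 in KO MEFs, against 1237 and 758 in WT MEFs, on the linear scale of the normalized values. For smooth muscle 4 of 5 tested markers were at higher values in KO, with sums of 4000 and 4495 in KO MEFs, against 3539 and 3268 in WT MEFs, and Synpo2 was detected on no array. Most of this sum was Actg2, described below as an SRF target. Its normalized log2 values were 11.53 and 11.75 in KO MEFs and 11.35 and 11.05 in WT MEFs. Des is in both the skeletal and the smooth muscle sum, so the sums are not separate sets of markers. Their part in the Ankrd1 difference was not tested. In bulk RNA, more cells of a type and more RNA per cell cannot be told apart.

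Ctgf and Cyr61 encode secreted CCN matricellular proteins (CCN2 and CCN1) that bind integrins, and they are usually read together as YAP targets. The Ctgf probe had signals of 25976 and 22915 in KO MEFs, against 14671 and 16887 in WT MEFs. Its normalized log2 values were 14.53 and 14.30 in KO MEFs and 14.04 and 14.22 in WT MEFs, so that the KO arrays lay above by only 0.08, less than the 0.24 between the KO replicates. The difference of 0.28 ± 0.18 log2 units was 0.17 without KO replicate 1.

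Cyr61 did not lie above WT on any of its 3 probes. The brightest had signals of 1781 and 1647 in KO MEFs, against 1219 and 1673 in WT MEFs, and normalized log2 values of 10.52 and 10.39 in KO MEFs and 10.42 and 10.86 in WT MEFs. The groups overlapped, with WT replicate 2 the highest and KO replicate 2 the lowest, and the difference was -0.18 ± 0.21. The second probe overlapped as well, at 9.39 and 9.54 in KO MEFs and 9.42 and 9.63 in WT MEFs, with a difference of -0.06 ± 0.18. The third and dimmest stood at 6.16 and 6.41 in KO MEFs and 6.68 and 6.46 in WT MEFs, with the KO arrays lower by a gap of 0.04 and a difference of -0.28 ± 0.19. The negative sign of the brightest probe rested on WT replicate 2, as the difference was 0.04 without that array. It was also 0.13 with median scaling, a setting under which the median of all genes shifted to 0.28.

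Amotl2 and Axl are further targets of YAP with roles at the membrane. Amotl2, an angiomotin family scaffold that binds YAP and restrains it, had signals of 234 and 220 in KO MEFs, against 180 and 153 in WT MEFs. Its normalized log2 values were 7.02 and 6.89 in KO MEFs and 7.03 and 6.55 in WT MEFs, so the groups overlapped at WT replicate 1. The difference of 0.17 ± 0.21 log2 units turned to -0.07 without WT replicate 2 and was 0.41 without WT replicate 1.

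Axl is a receptor tyrosine kinase of the TAM family, whose ligand is Gas6. Its signals were 7407 and 6448 in KO MEFs, against 4341 and 4251 in WT MEFs, and its normalized log2 values were 12.63 and 12.42 in KO MEFs and 12.31 and 12.26 in WT MEFs. The KO arrays lay above with a gap of 0.11, less than the 0.21 between the KO replicates, and the difference of 0.24 ± 0.18 was 0.13 without KO replicate 1. Macrophages also express TAM receptors. All 9 tested macrophage markers were at higher values in KO, with sums of 37896 and 29426 in KO MEFs, against 25676 and 21796 in WT MEFs, while Ptprc, a general leukocyte marker, and Itgam, a myeloid marker, were detected on no array. The part of such cells in the Axl value was not tested.

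The 4 adhesion genes with a probe had differences from -0.14 to 0.36 log2 units. Zyx encodes zyxin, a LIM protein of focal adhesions and stress fibres. It had signals of 12721 and 13539 in KO MEFs, against 7673 and 8166 in WT MEFs, and normalized log2 values of 13.46 and 13.56 in KO MEFs and 13.07 and 13.23 in WT MEFs. The KO arrays lay above by 0.23, more than the 0.10 between the KO replicates and the 0.16 between the WT replicates. The difference of 0.36 ± 0.17 log2 units was the second largest among the 9 genes.

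Vcl encodes vinculin, which links talin at the adhesion to actin filaments. Its signals were 3786 and 3757 in KO MEFs, against 2901 and 3188 in WT MEFs, and its normalized log2 values were 11.66 and 11.62 in KO MEFs and 11.72 and 11.84 in WT MEFs. It was the only gene of the 9 with both KO arrays below both WT arrays, by a gap of 0.06. The difference of -0.14 ± 0.17 became 0.18 with median scaling, below the 0.28 by which all genes shifted there.

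Actn1 encodes alpha-actinin 1, which crosslinks stress fibres, and Tpm1 encodes a tropomyosin that lies along actin filaments. Actn1 had signals of 8478 and 8188 in KO MEFs, against 5879 and 6091 in WT MEFs, and normalized log2 values of 12.87 and 12.79 in KO MEFs and 12.74 and 12.77 in WT MEFs. The gap of 0.03 between the groups was less than the 0.08 between the KO replicates, and the difference was 0.08 ± 0.17. Tpm1 had signals of 23507 and 20188 in KO MEFs, against 15461 and 17374 in WT MEFs, and normalized log2 values of 14.38 and 14.11 in KO MEFs and 14.13 and 14.27 in WT MEFs. Its groups overlapped, and its difference of 0.05 ± 0.19 changed sign to -0.09 without KO replicate 1.

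**Figure D2:**
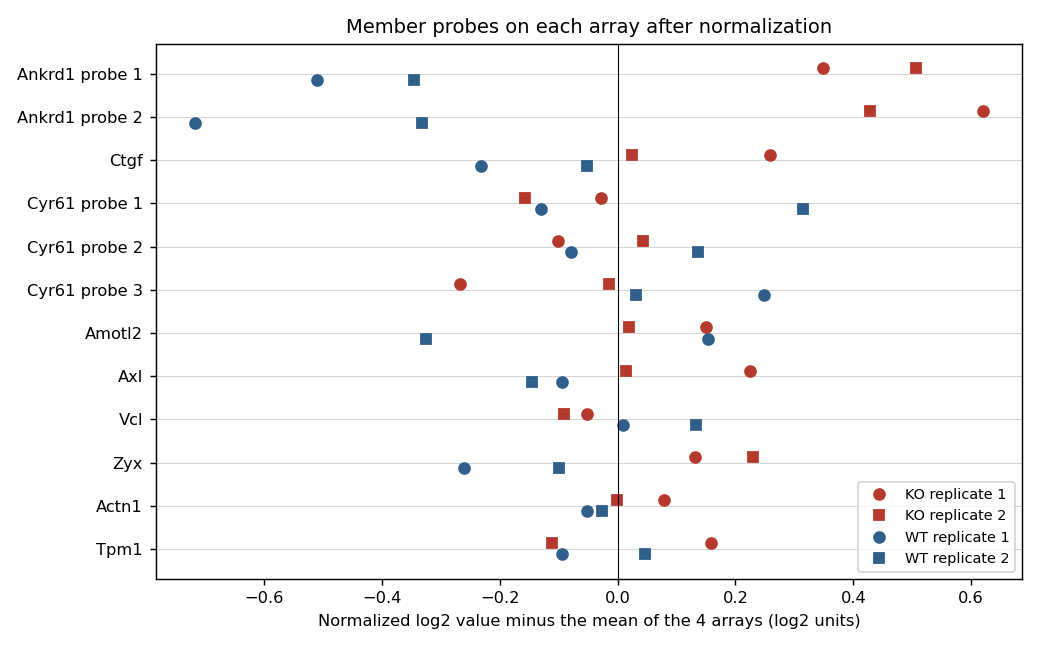
Normalized log2 value of each of the 12 probes on each array minus its mean over the 4 arrays (log2 units), with KO in red drawn above WT in blue, circles for replicate 1 and squares for replicate 2. The widest gaps between KO and WT arrays are those of the Ankrd1 probes (0.69 and 0.76), followed by Zyx (0.23), and the points of Cyr61 probe 1, Cyr61 probe 2, Amotl2 and Tpm1 interleave.

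Of the 9 genes measured, 7 had a higher and 2 a lower mean in KO. Of all 8047 genes tested, 4213 had a higher and 3834 a lower mean. The median difference was 0.17 log2 units over the 9 genes, against 0.01 over all genes tested. Both KO arrays lay above both WT arrays for 5 of the 9 genes (Ankrd1, Ctgf, Axl, Zyx and Actn1), where 21.0% of all genes did so. Both lay below for 1 (Vcl), where 17.1% of all genes did so, and 3 overlapped. None of the 9 passed the test over all genes (limma, adjusted p under 0.05). With trend and robust variances in the same model 20 of all genes passed, Ankrd1 among them. At an unadjusted p under 0.05, 1 gene (Ankrd1) was at a higher value in KO, where 4.59% of all genes were, and 0 at a lower value, where 3.54% were. Since the genes were picked with these contrasts known, nothing is read from these counts.

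The YAP targets and the adhesion genes were also summarised apart. The median difference was 0.24 log2 units over the 5 YAP targets, with 3 above and 2 overlapping, and 0.06 over the 4 adhesion genes, with 2 above, 1 below and 1 overlapping. Of all genes tested, 21.0% lay above and 17.1% below. By array, with the mean over all arrays of each gene set to 0, the median of the 9 genes was 0.15 and 0.01 on the KO arrays (replicate 1 and replicate 2), against -0.09 and -0.05 on the WT arrays. KO replicate 1 was thus the highest, and for Ctgf, Amotl2, Axl, Actn1 and Tpm1 the KO replicate 2 array lay closer to the mean of the WT arrays. The spread between replicates was moderate, with a median of 0.13 between the KO arrays and 0.16 between the WT arrays over the 9 genes, against 0.17 and 0.24 over all genes.

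**Figure D3:**
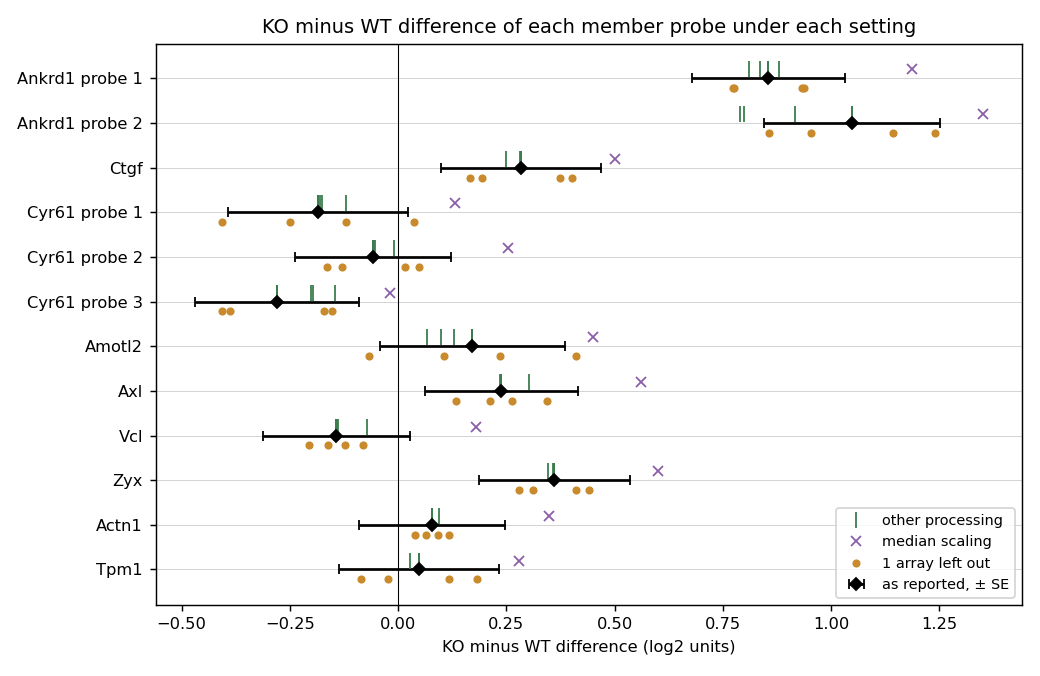
KO minus WT difference (log2 units) of each probe as reported with the SE of the model (black diamonds and bars), under other processing (green ticks), with median scaling (purple crosses) and with 1 array left out (orange points). Both Ankrd1 probes stay between 0.77 and 1.35 in every setting, whereas the values of Cyr61 probes 1 and 2, Amotl2, Vcl and Tpm1 fall on both sides of 0.

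The regulators of the pathway were set beside their targets. Yap1 had signals of 835 and 912 in KO MEFs, against 746 and 744 in WT MEFs, and a normalized difference of -0.22 ± 0.17 log2 units with both KO arrays lower. With median scaling it was 0.09, below the 0.28 by which all genes shifted there. Wwtr1, which encodes TAZ, was nearly as bright in both genotypes as deposited (159 and 155 in KO MEFs, against 156 and 153 in WT MEFs) and lay below WT only after the brighter KO arrays were normalized. Its difference was -0.59 ± 0.17, with an adjusted p of 0.543 over all genes (limma), and it lay between -0.66 and -0.30 in every setting run. Of the TEAD genes, Tead2 (0.03 ± 0.20) and Tead4 (-0.02 ± 0.19) were tested and overlapped between the genotypes, Tead1 was detected on no array and Tead3 on 1. Of the kinases that phosphorylate YAP, Lats2 was detected on no array, and no probe was paired with Lats1.

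Over all 25 Hippo pathway genes on the list, 20 had a probe and 13 were tested. Of these, 5 were at higher and 8 at lower values in KO, 0 passed the test over all genes in either direction, and the median difference was -0.09 log2 units. Among them Stk4, which encodes the Hippo kinase MST1, stood at 489 and 480 in KO MEFs, against 324 and 305 in WT MEFs, with a difference of 0.27 ± 0.17. Ptpn14 had a difference of 0.25 ± 0.17 with both KO arrays higher, which was 0.058 on the authors' scaled intensities. Frmd6, an upstream scaffold, had a difference of -0.44 ± 0.28, and its 2 WT arrays (1783 and 1022) were too far apart to separate the groups (-0.04 without WT replicate 1 and -0.85 without WT replicate 2). At an unadjusted p under 0.05, 0 of the 13 were at higher values, where 4.59% of all genes were, and 1 (Wwtr1) was at a lower value, where 3.54% were.

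The other YAP and TAZ targets did not share the value of Ankrd1. Of 20 listed genes, 17 had a probe and 13 were tested, with 7 at higher and 6 at lower values, 0 past the test in either direction and a median difference of 0.05. Nt5e, the ecto-nucleotidase CD73, had signals of 173 and 171 in KO MEFs, against 128 and 121 in WT MEFs (0.32 ± 0.18). Crim1, a transmembrane regulator of BMP signalling, had a difference of 0.32 ± 0.19. On the authors' scaled intensities these differences were 0.079 for Nt5e and 0.057 for Crim1. Those intensities have no background subtracted and were scaled by 1 factor per array. With quantile normalization but no background correction, the differences were 0.15 for Nt5e and 0.14 for Crim1. The part of background and of scaling in the lower values was not tested. At the other end, Gadd45b, a stress response gene, had signals of 192 and 193 in KO MEFs, against 221 and 176 in WT MEFs, and a difference of -0.63 ± 0.22 with an adjusted p of 0.570 (limma), which was -0.35 without WT replicate 1. Ccdc80, a matrix protein gene, had a difference of -0.55 ± 0.25, which was -0.21 without WT replicate 1.

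Srf itself overlapped between the genotypes. It had signals of 622 and 604 in KO MEFs, against 408 and 554 in WT MEFs, and a normalized difference of -0.08 ± 0.22. Mrtfa had a difference of -0.14 ± 0.22, and Mrtfb was detected on 1 array and not tested. Elk3, another gene listed around SRF, overlapped at 0.03 ± 0.19. Scai, which encodes an inhibitor of MRTF, had signals of 132 and 128 in KO MEFs, against 99.3 and 95.5 in WT MEFs, and a difference of 0.48 ± 0.20 that was 0.03 on the authors' scaled intensities. Of the 8 genes listed around SRF, 4 were tested, 2 were at higher and 2 at lower values, 0 passed the test, and the median was -0.03.

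The other genes known as SRF targets, genes of the actin cytoskeleton and Srf itself, numbered 18, of which 15 were tested. They were at higher values in 10 and lower in 5, 0 passed the test in either direction, and the median was 0.08. Actg2, the smooth muscle gamma actin gene, had signals of 3459 and 4047 in KO MEFs, against 2256 and 1875 in WT MEFs (0.44 ± 0.19), and Cald1, encoding caldesmon, had a difference of 0.32 ± 0.21 with overlapping arrays. Fhl1 (-0.36 ± 0.20) and Tpm2 (-0.25 ± 0.17) had both KO arrays lower, and Tpm2 stood at 0.09 with median scaling, below the shift of 0.28 of all genes. With 1 array left out, Cald1 was at 0.10 and Fhl1 at -0.17 without WT replicate 2, and Actg2 at 0.29.

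Of 28 focal adhesion and stress fibre partners, 18 were tested, 13 at higher and 5 at lower values in KO, with 0 past the test and a median of 0.08. Both KO arrays lay above both WT arrays for 7 of the 18 (21.0% of all genes did so) and below for 1 (17.1% of all genes). In the other lists the counts above and below were 4 and 2 of 13 (other YAP targets) and 3 and 3 of 13 (Hippo genes). They were 1 and 0 of 4 (SRF and cofactors), 3 and 3 of 15 (actin targets) and 3 and 3 of 10 (relatives of the 9 genes). Pxn, which encodes the adhesion scaffold paxillin, had signals of 241 and 313 in KO MEFs, against 161 and 163 in WT MEFs, and a difference of 0.63 ± 0.22 with an adjusted p of 0.570 (limma), which ranged from 0.36 to 0.90 with 1 KO array left out. Bcar1, encoding the paxillin partner p130Cas, had signals of 379 and 409 in KO MEFs, against 196 and 278 in WT MEFs (0.50 ± 0.26), and leaving out WT replicate 1 gave 0.14 while leaving out WT replicate 2 gave 0.85. Pdlim1, a LIM protein that binds alpha-actinin, stood at 3327 and 4357 in KO MEFs, against 1874 and 2430 in WT MEFs (0.41 ± 0.23), with 0.20 without WT replicate 1 and 0.61 without WT replicate 2. Evl, an Ena/VASP protein, had a difference of 0.22 ± 0.17, which was 0.0050 on the authors' scaled intensities.

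**Figure D4:**
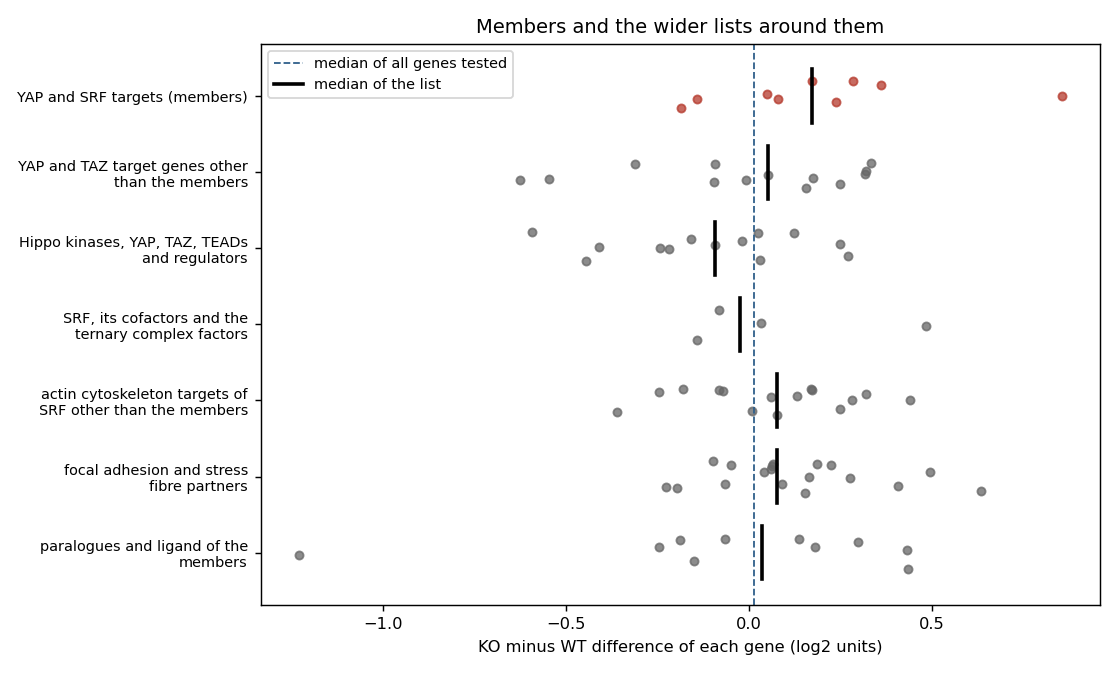
KO minus WT difference (log2 units) of each tested gene in the 9 YAP and SRF targets (red) and in the 6 wider lists (grey), with a black bar at the median of each list and a dashed line at the median of all genes tested (0.01). The medians lie between -0.09 and 0.17, and Ankrd1 at 0.86 and Ccn5 at -1.23 are the farthest points.

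The relatives of the 9 genes were set beside them. The CCN family member Ccn5, which lacks the C-terminal domain of its relatives, had signals of 379 and 360 in KO MEFs, against 909 and 350 in the WT MEFs. Its difference of -1.23 ± 0.46 log2 units came mostly from WT replicate 1 and was -0.44 without that array. Ccn4 overlapped (0.14 ± 0.19, and 0.02 without WT replicate 2). Of the TAM receptors beside Axl, Mertk had signals of 207 and 186 in KO MEFs, against 141 and 127 in WT MEFs (0.43 ± 0.21), and Tyro3 had a difference of 0.43 ± 0.23. On the authors' scaled intensities they stood at 0.17 for Mertk and 0.02 for Tyro3, and Mertk was at 0.24 without WT replicate 2. Gas6, their ligand, overlapped at 0.18 ± 0.28, with -0.24 without WT replicate 2. Of the other alpha-actinin and tropomyosin genes, Actn4 had a difference of -0.19 ± 0.17 and Tpm3 of -0.15 ± 0.20. Actn3 was detected on KO arrays only, at signals of 122 and 114 in KO MEFs, against 93.5 and 92.9 in WT MEFs, but its difference was -0.04 on the authors' scaled intensities. The zyxin relative Trip6 stood at -0.06 ± 0.23. The muscle ankyrin repeat genes Ankrd2 and Ankrd23, the zyxin relative Lpp and Actn2 were detected on no array, and Amot on 1. Of 10 relatives tested, 5 were at higher and 5 at lower values, 0 passed the test in either direction, and the median was 0.04.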

How the data were processed

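Total RNA of 2 KO and 2 WT MEF lines was labelled and hybridized, 1 array per line, to Illumina MouseRef-8 BeadChips. Beads were summarised in GenomeStudio by the authors, who deposited a signal intensity per probe, with no background subtracted and no scaling, and a detection p-value per probe. They also deposited intensity values with each array scaled by 1 factor (0.884 and 0.883 for KO, 1.16 and 1.15 for WT). A genome build for the array is not given in the sources used here.

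The members and lists were chosen with earlier results of these data known. Probes were named through the platform annotation (23978 of 25697 with 1 gene, 1719 with none) and current RefSeq symbols. Signals were background corrected (normexp from detection p-values, offset 16), quantile normalized and taken to log2 in limma 3.58.1 (R 4.3.3). The 11552 probes detected (p under 0.05) by 2 or more arrays were kept. A gene was represented by its brightest tested probe, a choice for 2060 of 8047 genes. KO and WT were compared by lmFit and eBayes (two-sided, with 2 residual degrees of freedom and 4.86 prior), with Benjamini-Hochberg adjustment over all probes tested. For a probe undetected in 1 whole genotype a lower bound of the fold was computed. The named genes were all members with every probe, the regulators of YAP and SRF, the relatives of the members, and otherwise the 4 genes of each list with the smallest unadjusted p. The steps were tested on simulated data. The alternatives were other background corrections, scalings, detection filters and variance models, the line number as a block, the mean over probes, and each array left out.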

Additional observations from a re-analysis of the deposited data

How the results depend on the processing

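Ankrd1, Ctgf, Axl, Zyx and Actn1 kept a positive difference in all 13 alternatives run, but many of these could not turn the sign. The detection filters, the variance model and the block leave the difference itself unchanged. Both KO arrays of these genes lay above both WT arrays, so leaving out 1 array could not turn it either. With trend and robust variances 20 genes passed the test, 1 of them from the 9 described here (Ankrd1, difference 0.86), which is no support, since the 9 were chosen with results of these arrays known. The count of all genes past the test was 0 with the strict filter, 2 with the line number as a replicate block and from 1 to 31 with 1 array left out, the highest without WT replicate 1. The block changed no call among the 9 genes. The line numbers are not stated to pair the lines. The deviations of KO replicate 1 and WT replicate 1 had a correlation of -0.04, which cannot settle the pairing with so few arrays.

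Median scaling put the median difference of all genes at 0.28. It gave 0.13 for Cyr61 and 0.18 for Vcl, 8 genes with both KO arrays above (56.8% of all genes then) and 0 below (4.35% of all genes), and a median of 0.45 over the 9 genes. All 9 were then at higher values, and 7 of 9 lay above the median of all genes, as they did in the reported fit. Medians of the wider lists were then 0.37 for the other YAP targets, 0.14 for the Hippo genes, 0.28 for the SRF cofactors, 0.33 for the actin targets, 0.40 for the adhesion partners and 0.30 for the relatives. The median of the 9 genes was 0.099 without background correction and 0.094 on the authors' scaled intensities. With the mean over probes, 2 of the 9 genes lay below (17.4% of all genes then), and the medians were -0.019 for the actin targets and 0.093 for the adhesion partners. The adhesion partners stood at 0.12 on the authors' scaled intensities, 0.051 with no filter and 0.12 with the strict filter, and the relatives at -0.11 with the strict filter. The causes were not tested.

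With 1 array left out, the difference ranged from -0.41 to 0.037 for Cyr61, from -0.068 to 0.41 for Amotl2 and from -0.087 to 0.18 for Tpm1 (-0.022 without WT replicate 1). It ranged from 0.17 to 0.40 for Ctgf, from 0.13 to 0.34 for Axl, from 0.038 to 0.12 for Actn1 and from -0.20 to -0.081 for Vcl. From 1 to 3 genes then lay below, where 29.7% to 36.0% of all genes did so, since a lone array separates more easily. The list medians ranged from -0.16 to 0.024 (Hippo), from -0.15 to 0.15 (SRF cofactors), from -0.050 to 0.11 (actin targets) and from 0.070 to 0.12 (adhesion partners). Where an array was left out, the lone array of that genotype was assumed to vary like the other genotype. With 2 arrays per genotype, differences smaller than about the spread between replicates could not be resolved. The dim probes of Scai and Tyro3 gave only 0.033 and 0.023 on the authors' scaled intensities. They gave 0.16 and 0.14 with quantile normalization but no background correction, and the cause was not tested.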
